A study of Mus musculus with 12 samples.

Results

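Interferon response and MHC class I genes were followed in MC3T3-E1 subclone 14 cells, a clonal line of mouse pre-osteoblasts derived from calvarial bone. The set was a list of 34 gene symbols: sensors of viral RNA, the transcription factors that carry the interferon signal, antiviral effectors, the ISG15 system, other interferon-induced genes, and the MHC class I pathway. Of these, 31 were among the 39032 genes of the table, and Ifit3, Oas1a and H2-D1 were not analysed here. The cells had been kept in osteogenic medium with ascorbic acid phosphate and β-glycerophosphate until day 5. They received vehicle (Control), R-spondin 2 at 200 ng/ml (RSPO2, a secreted enhancer of Wnt signalling), bone morphogenetic protein 2 at 100 ng/ml (BMP2, an osteoblast-inducing ligand), or both proteins at those doses (BMP2+RSPO2). All 4 arms held wild-type cells of this one line, with 3 biological replicates each, which gave 12 poly(A)-selected RNA sequencing libraries. The study asked which transcripts respond to each protein and to their combination.

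Interferons are secreted cytokines whose receptors activate JAK kinases, which phosphorylate STAT proteins. A complex that holds STAT2 and IRF9 binds the interferon-stimulated response element, while STAT dimers bind the gamma-activated site, and IRF1 is a transcription factor induced through the latter. Many of the induced genes encode proteins that block viruses, and others feed antigen presentation: the immunoproteasome cuts proteins into peptides, the TAP transporter carries them into the endoplasmic reticulum, and tapasin helps load them onto the MHC class I heavy chain with β2-microglobulin. In bone, type I interferon is known as a restraint on osteoclast formation.

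With both proteins, 13 of the 21 members that could be tested were called lower than in Control and none higher. Of all tested genes, 19.4% were called lower and 3.65% higher in that comparison. The members called lower included the immunoproteasome subunits, both TAP subunits and tapasin, the transcription factor Irf1 and the membrane effectors Ifitm3 and Bst2. B2m and H2-K1, which encode the MHC class I molecule itself, were not called in that comparison. No member was called with either protein alone. FPKM (a fragment count relative to the length of the transcript and the depth of the library) is the unit of every level below, and every change is a difference of log2(FPKM + 1) with the standard error (SE) of 1 limma fit over all 12 libraries. A gene was called when its p-value, adjusted over the 11548 genes tested, was under 0.05, and n = 3 in every arm.

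Of the 31 members in the table, 21 reached 1 FPKM in at least 3 libraries and were tested. The other 10 stayed below this limit: the RNA sensors Ifih1 and Dhx58, the transcription factor Irf7, the effectors Ifit1, Rsad2, Mx1, Mx2 and Oasl2, the ISG15 protease Usp18, and Ifi44. No tested member had passed the limit through 1 arm alone, and 14 members were at 1 FPKM or more in all 12 libraries. Members of a family resemble each other in sequence (Ifitm1 to Ifitm3, Ifi27 and Ifi27l2a, H2-K1 and its class I neighbours), so the split of reads between them is uncertain.

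One library stood apart by its summed level. The FPKM values of BMP2+RSPO2 replicate 1 added up to 635139 and those of the other libraries to 322074 to 380507. Its top 10 genes took 57.8% of this sum, where the top 10 of the others took 11.4% to 19.8%. There, 19 of the 21 tested members were lower than the mean of replicates 2 and 3 of that arm, with a median difference of −0.607, where all tested genes had a median of −0.13. In replicate 1 of Control, RSPO2 and BMP2, 12, 16 and 14 of the 21 were lower in the same way, by medians of −0.0863, −0.2 and −0.0921. All tested genes had medians of 0.0881, 0.0491 and 0.107 in those arms. Isg15, Ifi27l2a and Psmb9 were listed at 0 in BMP2+RSPO2 replicate 1, so arm means are not given for those genes. The level of the arm as a whole also shifted: the median change of all tested genes with both proteins against Control was −0.26 as deposited and −0.04 after median-of-ratios scaling, so the members are read below against that median. The 8 pre-osteoblast markers were present in every arm. Their summed levels were 6724 to 12173 FPKM in Control and RSPO2 and 13839 to 30478 FPKM in the arms with BMP2. The sums hide single markers that differed within an arm. Bglap2 was at 57.9 FPKM in BMP2+RSPO2 replicate 1 and at 1380 and 1297 in replicates 2 and 3. With BMP2 alone it was at 602 to 832 FPKM, and in Control at 37.8 to 68.3. Spp1 was lowest in replicate 1 of each arm, at 201, 154, 380 and 215 FPKM in Control, RSPO2, BMP2 and BMP2+RSPO2. Its other libraries held 587 to 6354 FPKM. The leukocyte marker genes Ptprc and Adgre1 were at 0 in all libraries. The 7 leukocyte and macrophage markers together ranged over 1.51 to 1.75 FPKM in Control, 1.49 to 2.23 with RSPO2, 2.89 to 4.2 with BMP2 and 1.36 to 6.17 with both. The 5 endothelial markers together reached at most 5.98 FPKM, in BMP2+RSPO2 replicate 1. There, Cdh5 was at 3.89 and Pecam1 at 1.38 FPKM, beside 0 and 0.66, and 0.02 and 0.43, in replicates 2 and 3. The part of these marker genes' cells in the results was not tested. In bulk RNA, fewer cells of a type and less RNA per cell cannot be told apart.

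The promoters of 4 members, picked as examples, show where the letters of the interferon elements lie. The sequences are the 250 bases before the RefSeq gene start in GRCm38.p6, read 5′ to 3′ on the gene's strand, with matches in capitals. Irf1 and Psmb8 fell with both proteins and hold TTCNNNGAA, the core of the gamma-activated site, and Bst2 fell and holds this core overlapping 2 matches to the core of the interferon-stimulated response element, which is GAAA repeated after 2 bases of any kind. Isg15, which was not called, holds 3 overlapping matches to the latter. Other members held these cores with various outcomes with both proteins. Ifit2 holds TTCNNNGAA and was not called. B2m and Stat2 hold the other core and were not called either, while Ifitm2 holds it and was called lower. Ifit1 and Rsad2 hold it and were not tested. A link between the cores and the changes was not tested. The first sequence is at chr11:53769764-53770013, plus strand, the second at chr17:34197945-34198194, plus strand, the third at chr8:71537473-71537722, minus strand, and the fourth at chr4:156200819-156201068, minus strand.
Irf1: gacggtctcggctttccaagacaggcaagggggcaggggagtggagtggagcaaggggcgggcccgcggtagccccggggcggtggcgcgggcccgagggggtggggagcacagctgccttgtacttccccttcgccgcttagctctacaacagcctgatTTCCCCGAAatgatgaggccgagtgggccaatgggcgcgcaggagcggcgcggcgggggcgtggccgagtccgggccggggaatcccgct
Psmb8: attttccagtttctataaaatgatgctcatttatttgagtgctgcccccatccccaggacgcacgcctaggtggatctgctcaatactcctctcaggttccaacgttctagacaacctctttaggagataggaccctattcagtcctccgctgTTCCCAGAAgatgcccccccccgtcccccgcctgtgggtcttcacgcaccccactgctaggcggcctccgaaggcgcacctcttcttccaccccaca
Bst2: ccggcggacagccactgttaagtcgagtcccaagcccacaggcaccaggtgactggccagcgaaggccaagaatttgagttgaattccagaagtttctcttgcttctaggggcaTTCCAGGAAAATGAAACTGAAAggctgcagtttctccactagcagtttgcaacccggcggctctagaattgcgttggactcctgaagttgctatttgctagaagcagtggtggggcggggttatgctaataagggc
Isg15: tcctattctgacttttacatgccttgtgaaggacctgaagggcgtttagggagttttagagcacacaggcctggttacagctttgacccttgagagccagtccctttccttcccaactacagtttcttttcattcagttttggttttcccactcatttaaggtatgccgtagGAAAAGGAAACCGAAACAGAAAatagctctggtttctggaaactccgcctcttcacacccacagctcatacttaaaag
Psmb9 and Tap1 lie back to back and fell together, and the 225 bases between their starts (chr17:34187331-34187555, plus strand as read toward Tap1) hold neither core.
Psmb9 to Tap1: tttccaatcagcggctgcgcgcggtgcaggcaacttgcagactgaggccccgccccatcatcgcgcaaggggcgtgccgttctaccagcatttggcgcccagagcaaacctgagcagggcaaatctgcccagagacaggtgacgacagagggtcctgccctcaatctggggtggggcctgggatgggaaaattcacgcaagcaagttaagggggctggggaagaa
Among the 24 members with a promoter entry, 7 (29.2%) held the interferon-stimulated response element core on either strand, namely B2m, Bst2, Ifit1, Ifitm2, Isg15, Rsad2 and Stat2, against 3.46% of 27025 genes. TTCNNNGAA, which reads the same on both strands, was found in Bst2, Ifit2, Irf1 and Psmb8 (16.7%), against 8.13% of those genes. In the RefSeq annotation, Tapbp, H2-K1, Psmb9, Tap1, Psmb8 and Tap2 lie on chromosome 17, Ifitm1, Ifitm2 and Ifitm3 on chromosome 7, and Ifi27 and Ifi27l2a on chromosome 12, so the members are not independent observations.

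**Figure D1:**
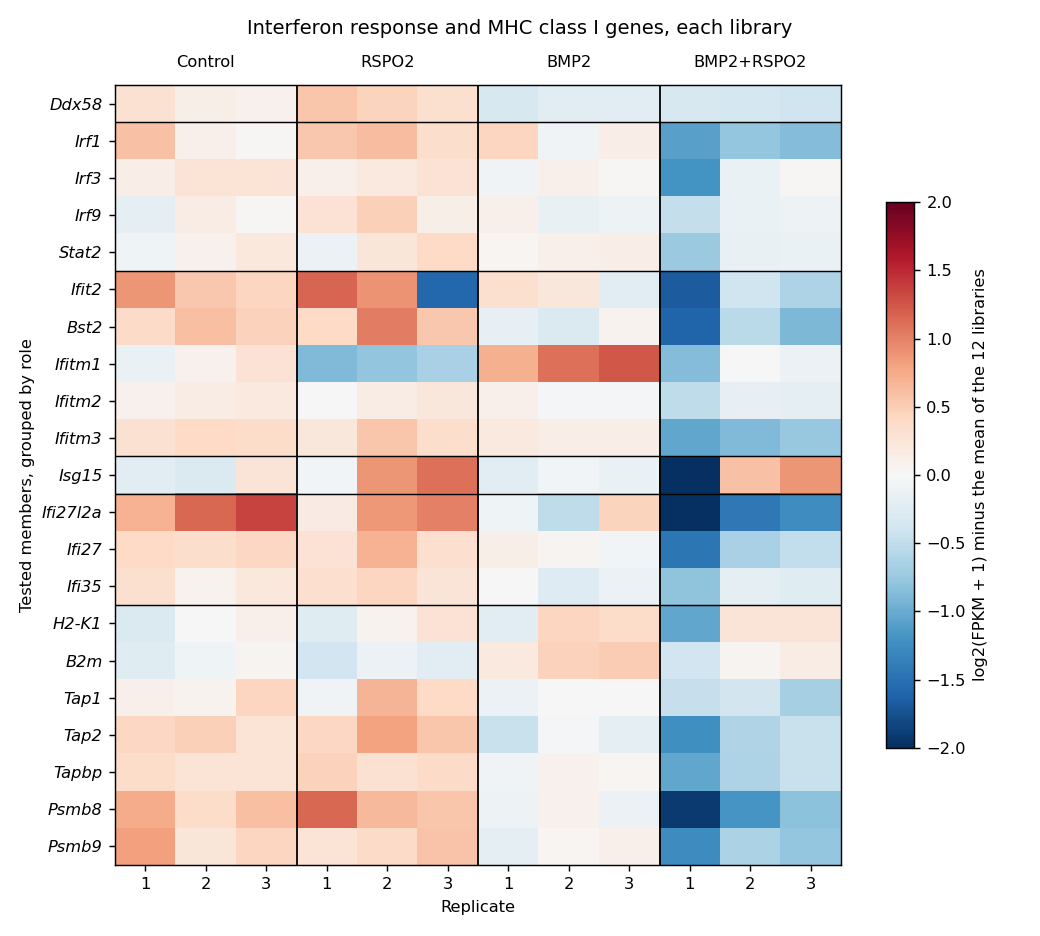
Each cell is the log2(FPKM + 1) of 1 of the 21 tested members (rows, grouped by role) in 1 of the 12 libraries (columns, by arm and replicate), minus that gene's mean over the 12 libraries; the colour scale ends at −2 and 2, and values beyond it take the end colour. The 3 BMP2+RSPO2 libraries are blue for most rows, with pale or red cells for B2m, H2-K1 and Isg15 in replicates 2 and 3, while Ifitm1 is reddest in BMP2 and Isg15 is darkest in BMP2+RSPO2 replicate 1, where it is listed at 0.

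Against Control, the 13 calls among 21 tested members (61.9%) with both proteins compare with 19.4% of all tested genes called lower. Their median change was −0.70, where all tested genes had −0.26, and 18 of the 21 lay below that median. In 16 members (76.2%) the 3 BMP2+RSPO2 libraries were all below the 3 Control libraries, as in 37.3% of all tested genes. By role, the calls held the 1 tested sensor, 1 of 4 transcription factors, 3 of 5 antiviral effectors, not the 1 tested gene of the ISG15 system, 3 of 3 other interferon-induced members, and 5 of 7 genes of MHC class I, peptide loading and the immunoproteasome. Without BMP2+RSPO2 replicate 1 the same 13 genes were called, with 18.8% of all genes called lower. With median-of-ratios scaling 9 of the 13 remained, all but Ddx58, Ifitm2, Ifi35 and Tap1, and the all-gene calls changed from 421 higher (3.65%) and 2235 lower to 764 higher (6.62%) and 874 lower (7.57%).

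The immunoproteasome genes fell furthest within the antigen presentation group. Psmb8 encodes an interferon-inducible catalytic subunit that replaces a constitutive one in the proteasome. Its level was 10.6, 7.9 and 9.53 FPKM in Control, 14.3, 9.82 and 9.13 with RSPO2, 5.42, 6.34 and 5.38 with BMP2 and 0.84, 2.05 and 2.92 with both. The 3 libraries with both proteins lay below all others, those with BMP2 alone lay between them and Control, and RSPO2 overlapped Control. The change with both proteins was −1.88 (SE 0.25, adjusted p = 0.00101), and the arm mean was 20.7% of that of Control. Psmb9, the partner subunit encoded beside Tap1, read 3.2, 1.81 and 2.22 FPKM in Control, 1.88, 2.1 and 2.53 with RSPO2, 1.09, 1.46 and 1.55 with BMP2, and 0, 0.53 and 0.39 with both. No library with both proteins reached the lowest of any other arm. Its change was −1.39 (SE 0.20, adjusted p = 0.00143), and because of the value at 0 this size depends on the pseudocount: it was −2.96 with 0.1 in place of 1.

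Peptide transport and loading genes fell along with them. Tap1 and Tap2 encode the subunits of the transporter associated with antigen processing. Tap1 was at 5.61, 5.43 and 7.25 FPKM in Control, 4.86, 8.77 and 7.07 with RSPO2, 4.64, 5.09 and 5.17 with BMP2 and 3.44, 3.76 and 2.89 with both, a change of −0.70 (SE 0.18, adjusted p = 0.0198). Tap2 was at 13.1, 13.5 and 11.7, 13.1, 17.2 and 14.4, 6.69, 9.26 and 8.28 and 3.49, 5.92 and 6.69 FPKM in the same order of arms, a change of −1.15 (SE 0.20, adjusted p = 0.00326). Both genes were lower in all 3 libraries with both proteins than in any Control library, and their BMP2 libraries were also all below Control. The call of Tap1 ended under either rescaling (adjusted p = 0.126 with median-of-ratios) and without Control replicate 3 or BMP2+RSPO2 replicate 3 (adjusted p up to 0.0741), while Tap2 was called in each alternative. Tapbp encodes tapasin, the bridge between transporter and heavy chain, and it was the most abundant called gene of this group. Its levels were 42.9, 39.9 and 39.8 FPKM in Control, 45.7, 40.6 and 42.9 with RSPO2, 31.2, 34.9 and 33.6 with BMP2 and 15.5, 21 and 23.7 with both. The arms formed separate steps, with RSPO2 overlapping Control, BMP2 below both, and the combination lowest (−1.01, SE 0.14, adjusted p = 0.00105; 49.2% of the Control mean).

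The genes of the class I molecule itself were not called. B2m encodes β2-microglobulin, the invariant light chain, and was the most abundant member of all. It was at 748, 829.8 and 919 FPKM in Control, 681, 817 and 765 with RSPO2, 1016, 1219 and 1261 with BMP2 and 678, 915 and 980.4 with both. The BMP2 libraries were the highest and did not overlap any other arm, and the remaining 3 arms overlapped. The change was 0.03 (SE 0.17, adjusted p = 0.905) with both proteins and 0.48 (SE 0.17, adjusted p = 0.275) with BMP2 against Control. H2-K1, a classical class I heavy chain described here after its values were seen, had 28 ± 3.98 FPKM in Control (mean ± SD), 30.1 ± 5.69 with RSPO2, 34 ± 7.93 with BMP2 and 27.9 ± 12.3 with both. Its change with both proteins was −0.11 (SE 0.33, adjusted p = 0.827), and it read 0.14 with median-of-ratios scaling, 0.15 after quantile normalization and 0.32 without BMP2+RSPO2 replicate 1. For neither gene does the absence of a call show that the level stayed the same; relative to the all-gene median, B2m stood at 0.29 and H2-K1 at 0.15.

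Among the transcription factors, Irf1 fell and the others did not pass. Irf1, an interferon regulatory factor that activates Psmb9, Tap1 and other antigen presentation genes in many cell types, was at 13.6, 9.41 and 8.88 FPKM in Control, 13.2, 13.9 and 11.4 with RSPO2, 12, 8.19 and 9.65 with BMP2 and 3.59, 4.66 and 4.3 with both. Control, RSPO2 and BMP2 overlapped, and every library with both proteins was below all of theirs. The change was −1.15 (SE 0.18, adjusted p = 0.00193), and the arm mean was 39.3% of that of Control. Irf3, which is activated by the RNA and DNA sensing pathways and is not itself strongly interferon-induced, was the most abundant factor. It was at 17.9, 19.8 and 19.8 FPKM in Control, 17.4, 18.8 and 20 with RSPO2, 15.4, 17.6 and 16.6 with BMP2 and 6.52, 14.7 and 16.5 with both. The first replicate with both proteins was far below the other 2, and the change of −0.66 (SE 0.25, adjusted p = 0.0818) was not called. Irf9, the DNA-binding part of the type I interferon complex, was low throughout, at 0.91, 1.44 and 1.22 FPKM in Control, 1.68, 2.04 and 1.37 with RSPO2, 1.35, 0.98 and 1.04 with BMP2 and 0.58, 0.99 and 1.04 with both. It was called only between both proteins and RSPO2 (−0.53, SE 0.16, adjusted p = 0.0373), and that call ended without BMP2+RSPO2 replicate 1, among 7 of the 12 libraries left out in turn. Stat2, its partner, was at 5.37 ± 0.646 FPKM in Control and 3.87 ± 1.09 (mean ± SD) with both and was not called (−0.41, SE 0.18, adjusted p = 0.129).

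Ddx58 encodes RIG-I, a cytosolic sensor of viral RNA, and was the one sensor with enough signal to test. It was at 5.57, 4.76 and 4.66 FPKM in Control, 6.77, 6.19 and 5.63 with RSPO2, 3.24, 3.59 and 3.6 with BMP2 and 3.23, 3.14 and 3.02 with both. All RSPO2 libraries lay above Control and all BMP2 libraries below it. Those with both proteins lay barely below those of BMP2 (highest 3.23 against lowest 3.24 FPKM). That change against BMP2 was not called (−0.12, SE 0.10, adjusted p = 0.491), and the median of all genes was −0.19. The change with both proteins against Control was −0.54 (SE 0.10, adjusted p = 0.00603). It was not called after quantile normalization or median-of-ratios scaling (−0.33, adjusted p = 0.0521). Ifih1 and Dhx58, the other sensors of the RIG-I family, stayed between 0.16 and 0.73 FPKM and between 0 and 1.04 FPKM in the 12 libraries.

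Ifitm3 had the smallest p of any member with both proteins. It encodes a membrane protein that hinders virus entry at endosomes. Its levels were 299.7, 322 and 315 FPKM in Control, 284, 356 and 311 with RSPO2, 277, 268 and 266 with BMP2 and 118, 132 and 144 with both. The libraries with both proteins were all below the lowest of the other 9, which was 266 FPKM, and Control and RSPO2 overlapped. The change was −1.25 (SE 0.12, adjusted p = 0.000109), the arm mean was 41.9% of Control, and the call held in all 23 alternatives, with a highest adjusted p of 0.00872. Ifitm2, a close relative and the most abundant effector, was at 799, 833 and 860.0 FPKM in Control, 755, 831 and 876 with RSPO2, 807, 731 and 727 with BMP2 and 524, 666 and 658 with both. All libraries with both proteins were below the others, but the change of −0.44 (SE 0.13, adjusted p = 0.0314) read −0.18 after median-of-ratios scaling (adjusted p = 0.389) and 0.02 after quantile normalization. The call of Ifitm2 also ended without any 1 of the Control replicates or without BMP2 replicates 2 or 3 (adjusted p up to 0.0946). Ifitm2 thus moved little beyond the all-gene shift, at −0.18 relative to it, where Ifitm3 stood at −0.99.

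Bst2 encodes tetherin, which holds budding virus particles at the cell surface. It was at 5.52, 6.66 and 5.92 FPKM in Control, 5.64, 9.2 and 6.31 with RSPO2, 3.49, 3.13 and 4.29 with BMP2 and 0.66, 2.45 and 1.69 with both. The BMP2 libraries lay between Control and the combination without touching either, and the change with both proteins was −1.5 (SE 0.25, adjusted p = 0.0029). Ifit2, an RNA-binding inhibitor of translation, was at 5.5 ± 1.1 FPKM in Control and 1.41 ± 0.969 (mean ± SD) with both and was not called (−1.52, SE 0.61, adjusted p = 0.0947). One RSPO2 library of this gene stood apart, at 0.41 FPKM beside 8.35 and 6.79, and without that library (RSPO2 replicate 3) Ifit2 was called with both proteins (adjusted p = 0.00936).

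**Figure D2:**
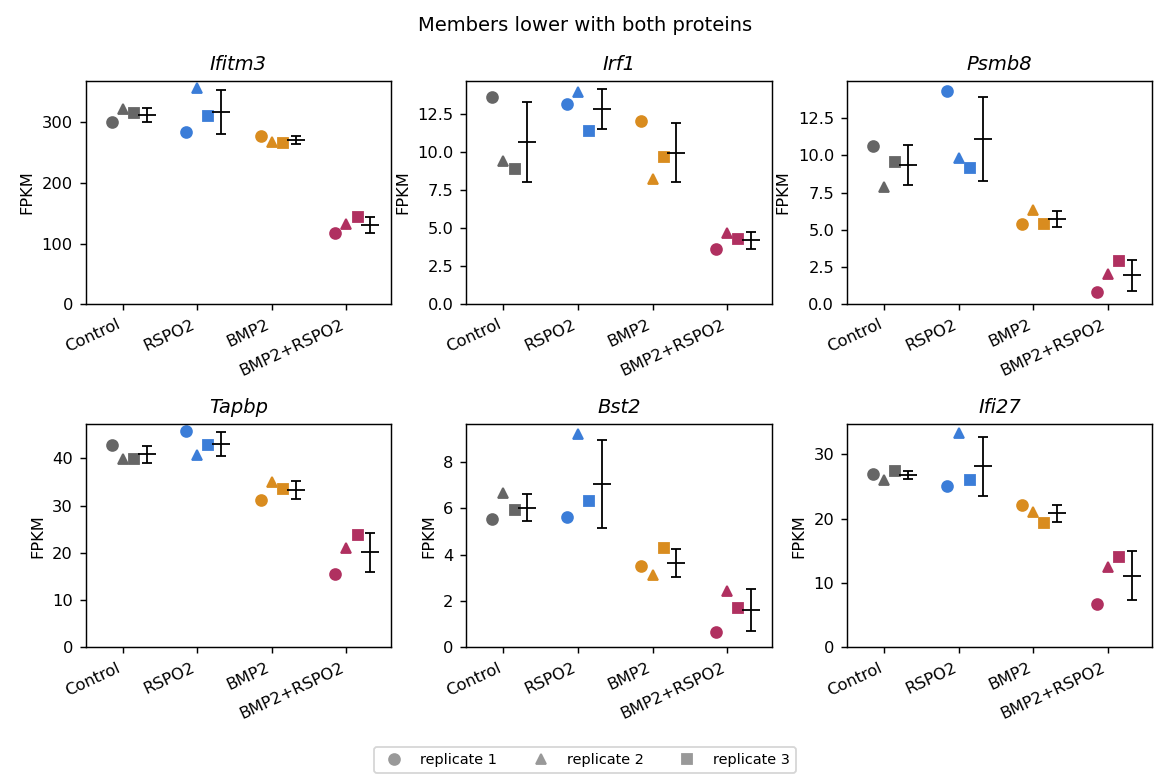
Levels in FPKM (y axis, from 0) of 6 members called lower with both proteins, in the 4 arms (x axis); each symbol is 1 library (circle, triangle and square for replicates 1, 2 and 3), and the bar beside them is the mean ± SD (n = 3). In each panel the 3 BMP2+RSPO2 libraries are below the 9 others. BMP2 alone lies between Control and the combination for Ifitm3, Psmb8, Tapbp, Bst2 and Ifi27 but overlaps Control for Irf1.

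The 3 tested genes among the other interferon-induced members fell. Ifi27l2a and Ifi27 encode small hydrophobic proteins of the ISG12 family. Ifi27l2a was at 7.78, 10.9 and 12.7 FPKM in Control, 5.07, 8.88 and 9.82 with RSPO2, 4.1, 2.81 and 6.37 with BMP2, and 0, 1 and 1.29 with both. It had the largest fitted change of the set (−2.77, SE 0.36, adjusted p = 0.000763), which was −4.28 with a pseudocount of 0.1 because of the value at 0. Without that library it was called as well, as in all 23 alternatives. Ifi27 was at 26.9, 26.1 and 27.4 FPKM in Control, 25.1, 33.4 and 25.9 with RSPO2, 22.1, 21 and 19.4 with BMP2 and 6.79, 12.5 and 14.1 with both. Its arms fell in the order Control, BMP2 and combination with no overlap, and its change was −1.25 (SE 0.21, adjusted p = 0.0032), or 41.6% of the Control mean. Ifi35, an interferon-induced leucine zipper protein, was at 10.9, 9.02 and 10.1 FPKM in Control, 11, 11.9 and 10.5 with RSPO2, 8.65, 6.98 and 7.89 with BMP2 and 4.47, 7.35 and 7.14 with both. The change of −0.61 (SE 0.16, adjusted p = 0.0216) was lost after either rescaling (adjusted p = 0.108 with median-of-ratios) and without Control replicates 1 or 3 (up to 0.0751).

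Isg15 was not called in any comparison, and its value with both proteins turned on 1 library. It encodes a ubiquitin-like protein that is joined to other proteins. Its level was 4.7, 4.48 and 6.99 FPKM in Control, 5.43, 11.3 and 13.4 with RSPO2, 4.79, 5.43 and 5.07 with BMP2, and 0, 9.08 and 11.3 with both. The value of 0 sits in the library that stood apart, and the other 2 libraries with both proteins were above all Control libraries. The change with both proteins was thus −0.34 (SE 0.76, adjusted p = 0.766) over all libraries and 0.82 (adjusted p = 0.0808) without that library. With replicates 2 and 3 of every arm alone it was 0.75 (adjusted p = 0.0251), where 7.58% of all genes were called higher.

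Of the 10 members under the limit for testing, Ifit1, Usp18, Oasl2, Mx2 and Ifi44 had their highest levels in RSPO2 replicates 2 and 3. These genes are described after their values were seen. Ifit1, a sensor of viral RNA caps, was at 0.74, 0.57 and 0.73 FPKM in Control, 0.43, 2.63 and 1.5 with RSPO2, 0, 0.29 and 0.50 with BMP2 and 0, 0 and 0.11 with both. Usp18, which removes ISG15 and dampens the receptor, was at 0, 0.09 and 0.13 FPKM in Control and 0.08, 0.58 and 0.57 with RSPO2, and at most 0.27 FPKM in the other arms. Oasl2, of the oligoadenylate synthetase family, was at 0.14, 0.60 and 0.65 FPKM with RSPO2 and at most 0.24 elsewhere, and Mx2, a dynamin-like antiviral GTPase, at 0.04, 0.34 and 0.14 and at most 0.02. Ifi44 was at 0.06, 0.32 and 0.24 FPKM with RSPO2 and between 0.05 and 0.21 elsewhere. In each of these genes RSPO2 replicate 1 was below its fellow replicates, so the arm did not move as one, and none was tested. Rsad2, which encodes viperin, was listed at 0 in all 12 libraries. Mx1 stayed at or below 0.04 FPKM and Irf7 at or below 0.84.

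**Figure D3:**
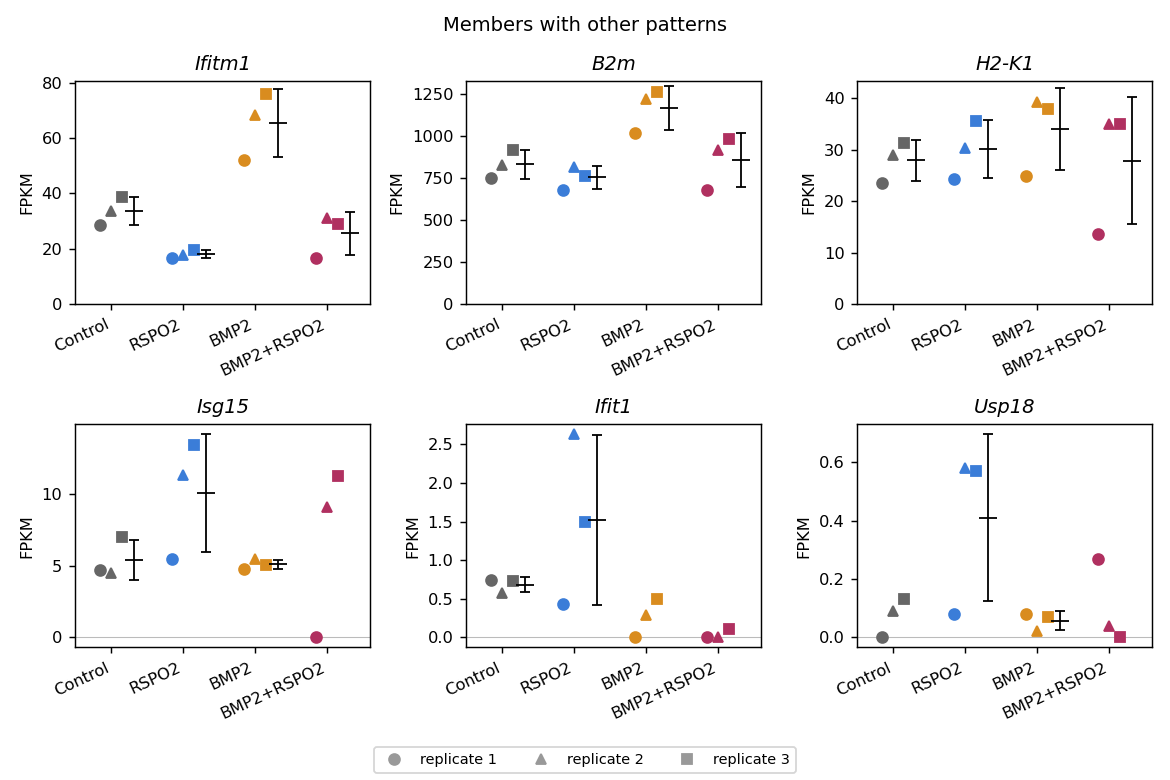
Levels in FPKM (y axis) of 6 members with other patterns, in the 4 arms (x axis), drawn as circles, triangles and squares for replicates 1, 2 and 3, with a bar for the mean ± SD (n = 3) in arms without a value at 0. Ifitm1 is highest with BMP2 and lowest with RSPO2, B2m is highest with BMP2, BMP2+RSPO2 replicate 1 is the lowest library of its arm for H2-K1 and is at 0 for Isg15, and RSPO2 replicates 2 and 3 are the highest libraries for Ifit1 and Usp18.

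With RSPO2 alone limma called none of the 21 members, against 0.0779% of all tested genes, and 2 had an unadjusted p under 0.05, Ddx58 and Ifitm1, against 3.62% of all genes. The members' median was 0.10, near that of all genes (0.01). BMP2 alone called none either, where 1.52% of all genes were called, and 8 members (with 9.93% of all genes) had an unadjusted p under 0.05. Most members were nevertheless lower with BMP2: 13 of 21 (61.9%) were below Control in all 3 libraries, as were 14.6% of all genes, and the median was −0.24 against −0.06. The members that lay lower with BMP2 included Tap2 (−0.61, SE 0.20, adjusted p = 0.24), Psmb8 (−0.62, SE 0.25, adjusted p = 0.418), Bst2 (−0.61, SE 0.25, adjusted p = 0.422) and Ifi27l2a (−1.11, SE 0.36, adjusted p = 0.23). These 4 are given after their values were seen. Without BMP2+RSPO2 replicate 1, whose spread enters the shared error, Tap2 (adjusted p = 0.0402) and Ddx58 (0.0455) were called lower with BMP2, where 2.22% of all genes were.

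Ifitm1, a relative of Ifitm3 at the cell surface, had levels that differed in order from those of Ifitm2 and Ifitm3. It was at 28.4, 33.6 and 38.8 FPKM in Control, 16.7, 17.7 and 19.7 with RSPO2, 51.9, 68.3 and 75.7 with BMP2 and 16.8, 31.2 and 29 with both. All RSPO2 libraries were below Control and all BMP2 libraries above it, while the combination overlapped Control and RSPO2. The changes against Control were −0.85 (SE 0.23, adjusted p = 0.526) with RSPO2, 0.93 (SE 0.23, adjusted p = 0.0849) with BMP2 and −0.41 (SE 0.23, adjusted p = 0.202) with both. The change with BMP2 was called without BMP2+RSPO2 replicate 1 (adjusted p = 0.0112) and from replicates 2 and 3 alone (0.00374), where that with RSPO2 was called too (0.0138). Between both proteins and BMP2, Ifitm1 fell by 1.34 (SE 0.23, adjusted p = 0.0147), a call that ended without BMP2 replicate 2 or 3 (adjusted p up to 0.0724).

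Between both proteins and BMP2 alone, 8 of the 21 members fell and none rose, which is 38.1% against 3.74% of all genes called lower. All 21 changes were below 0, as were 71.2% of those of all tested genes, with a median of −0.54 where all genes had −0.19. Ddx58 read 0.03 after median-of-ratios scaling and 0.04 after quantile normalization. Of the 21, 15 (71.4%) had arms that did not overlap, against 28.6%. Beside Ifitm1, the 8 were Ifitm3 (−1.05, SE 0.12, adjusted p = 0.00193), Irf1 (−1.07, SE 0.18, adjusted p = 0.0143), Psmb8 (−1.26, SE 0.25, adjusted p = 0.0282), Ifi27l2a (−1.66, SE 0.36, adjusted p = 0.034), Psmb9 (−0.87, SE 0.20, adjusted p = 0.0411), Tapbp (−0.72, SE 0.14, adjusted p = 0.0234) and Ifi27 (−0.90, SE 0.21, adjusted p = 0.044). The count rested on single libraries: it was 7 without BMP2+RSPO2 replicate 1, but 5 without Control replicate 2 or RSPO2 replicate 2, 4 without Control replicate 3 or BMP2 replicate 1, 3 without BMP2+RSPO2 replicate 2, 2 without BMP2 replicate 2 and 1 without BMP2 replicate 3. Fits that left out 1 library called 60 to 711 of all genes, against 506 with all libraries. Ifitm3 kept its call in all 23 alternatives, and Ifitm1, Psmb8, Ifitm3 and Irf1 were called after either rescaling.

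Compared with RSPO2 alone, both proteins gave 14 calls, all lower (66.7%, against 21.8% of all genes), with a median of −1.06 beside −0.26. In 16 members (76.2%) the combination was lower without overlap, against 36.1% of all genes. The 14 were the 13 genes lower against Control and Irf9. The calls of Ifitm2 and Irf9 ended in 7 of the 12 fits that left out 1 library. The largest changes were Ifi27l2a (−2.38, SE 0.36, adjusted p = 0.00118), Psmb8 (−2.08, SE 0.25, adjusted p = 0.000394) and Bst2 (−1.67, SE 0.25, adjusted p = 0.0012). Without BMP2+RSPO2 replicate 1, Ifitm1 was called higher against RSPO2 (0.71, adjusted p = 0.0148). Both this comparison and those with Control and BMP2 use the same 3 BMP2+RSPO2 libraries, so they are not independent of each other.

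The interaction, which subtracts the effect RSPO2 had alone from the effect it had on top of BMP2, was called for 1 member, where 0.286% of all genes were called lower. Ifitm3 changed by 0.02 with RSPO2 alone and by −1.05 when RSPO2 was added to BMP2, an interaction of −1.06 (SE 0.16, adjusted p = 0.0308). All 21 members had an interaction below 0, as had 72.7% of all tested genes, with a median of −0.59 where all genes had −0.21. Of the members, 11 had an unadjusted p under 0.05, against 13.0% of all genes. By p, Irf1 was next (−1.33, SE 0.25, adjusted p = 0.0599), followed by Psmb8 (−1.47, SE 0.36, adjusted p = 0.136) and Tapbp (−0.79, SE 0.19, adjusted p = 0.136). The call of Ifitm3 ended in 10 of the 12 fits that left out 1 library (adjusted p up to 0.133), and held without RSPO2 replicate 1 or BMP2+RSPO2 replicate 1. In the latter fit Irf1 (adjusted p = 0.0494) and Tapbp (0.045) were called beside it, and 1.27% of all genes were called lower. The shared sign of the members did not hold in every alternative. With median-of-ratios scaling without BMP2+RSPO2 replicate 1, B2m (0.03), H2-K1 (0.15), Irf3 (0.13) and Ifitm2 (0.02) were above 0, and the members' median was −0.26.

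**Figure D4:**
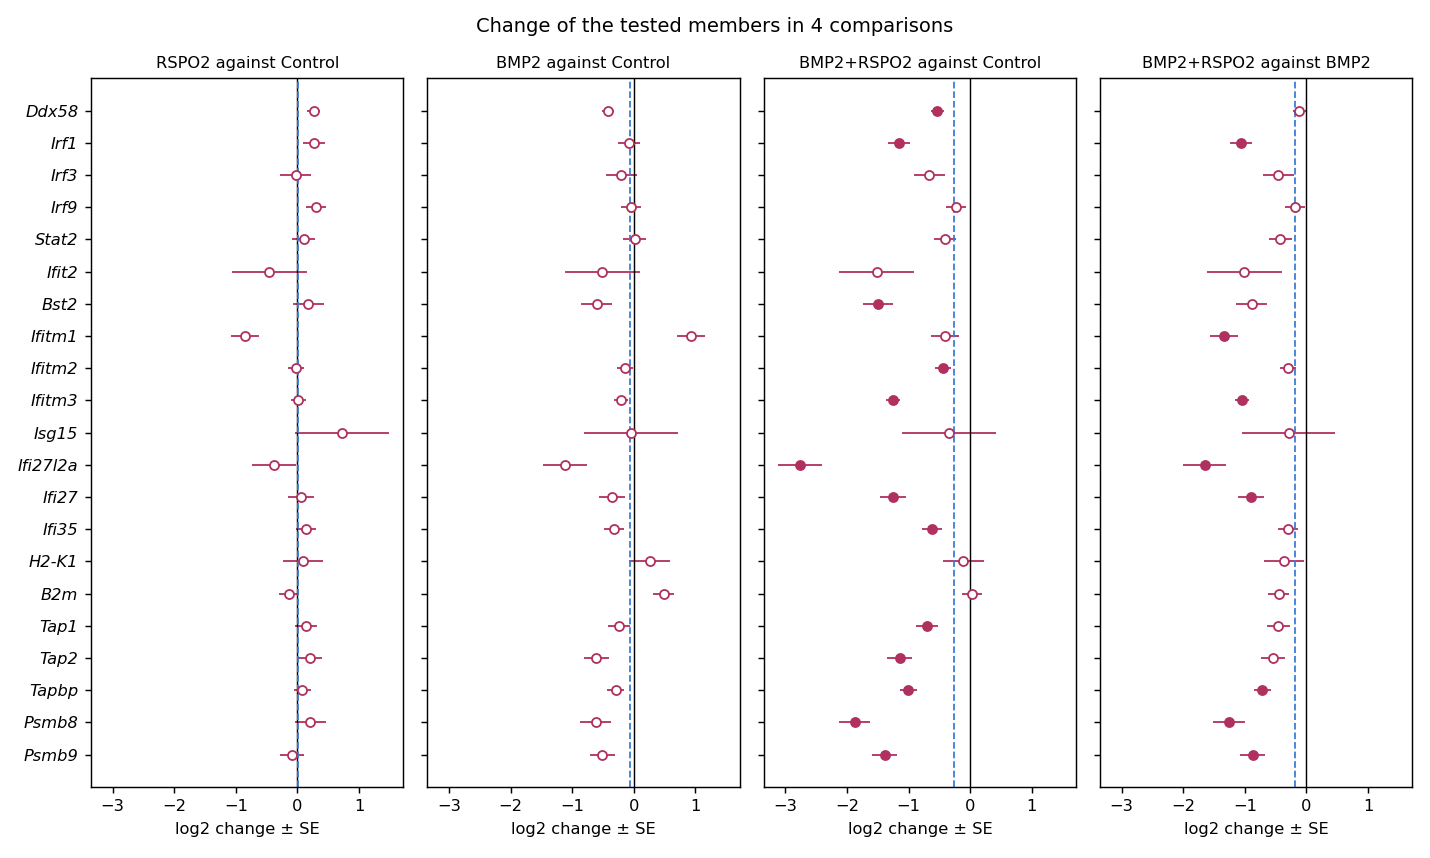
Change in log2(FPKM + 1) with its SE (x axis) of the 21 tested members (y axis, grouped by role) in 4 comparisons; filled points have an adjusted p under 0.05 and the dashed line is the median of all 11548 tested genes. No point is filled in the panels for RSPO2 or BMP2 against Control, 13 are filled for both proteins against Control and 8 for both proteins against BMP2, all to the left of the dashed line.

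The machinery upstream of the members was measured from a list of 20 interferon ligands, receptors, kinases and regulators, 12 of them tested. Ifnb1, Ifna4, Ifng and Ifnl2, the interferon genes of that list with rows in the table, were listed at 0 in all 12 libraries. With both proteins against Control 1 of the 12 rose and 1 fell (8.33%), where 3.65% of all tested genes rose and 19.4% fell. Jak2, a kinase of the interferon-γ receptor and of many cytokine receptors, rose from 21 ± 2.99 FPKM in Control to 45.3 ± 8.69 (1.06, SE 0.18, adjusted p = 0.00283). Jak1, which serves both receptor families, fell from 22.5 ± 2.4 to 15.7 ± 0.794 FPKM (−0.49, SE 0.10, adjusted p = 0.00627). The call of Jak1 ended after either rescaling, while that of Jak2 held in each alternative. The receptor subunits Ifnar1, Ifnar2, Ifngr1 and Ifngr2 were between 7.88 and 33.5 FPKM in all libraries, and none was called in this comparison.

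Of 14 tested nucleic acid sensors and adaptors, 2 (14.3%) fell with both proteins, below the 19.4% of all tested genes, and none rose. Tmem173, which encodes the DNA-sensing adaptor STING, went from 3.89 ± 0.577 to 1.71 ± 0.467 FPKM (−0.86, SE 0.14, adjusted p = 0.0029). It was called against BMP2 as well (−0.76, SE 0.14, adjusted p = 0.0226). The call against BMP2 ended without BMP2 replicates 2 or 3 (adjusted p up to 0.0898). It also ended after either rescaling, with median-of-ratios scaling without BMP2+RSPO2 replicate 1, and with the compared arms alone (up to 0.131). Adar, an RNA-editing enzyme at 2.16 ± 0.329 FPKM in Control, fell to 1.25 ± 0.271 (−0.49, SE 0.13, adjusted p = 0.0214). Its call was lost after either rescaling and without Control replicates 1 or 2 or BMP2+RSPO2 replicates 2 or 3 (adjusted p up to 0.0748). The list's median of −0.20 was above that of all genes (−0.26).

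Of 24 tested interferon-induced genes outside the member list, 14 (58.3%) fell with both proteins against Control and none rose, with a median of −0.56, where 19.4% of all tested genes fell and their median was −0.26. By the smallest p these were Trim21, an antibody-binding ubiquitin ligase (2.73 ± 0.229 to 0.907 ± 0.116 FPKM, −0.97, SE 0.14, adjusted p = 0.00146), the guanylate-binding protein Gbp2 (−1.34, SE 0.20, adjusted p = 0.00154), the ubiquitin ligase Dtx3l (−0.68, SE 0.12, adjusted p = 0.00307) and Igtp, an interferon-γ-induced GTPase (−0.84, SE 0.15, adjusted p = 0.00401). Each of these 4 calls held in all 22 alternatives in which it could be fitted. With BMP2 alone Trim21 was the 1 call of this list (−0.66, SE 0.14, adjusted p = 0.0499), and it ended in 10 of the 12 fits that left out 1 library (adjusted p up to 0.22). When RSPO2 was added to BMP2, Gbp2 (−0.96, SE 0.20, adjusted p = 0.03) and Lgals3bp (−0.55, SE 0.11, adjusted p = 0.03), a secreted galectin ligand, were called lower. Both calls ended without any 1 of the BMP2 replicates. Gbp2 kept its call in 8 of the 12 fits that left out 1 library and Lgals3bp in 4 (adjusted p up to 0.111). Both calls also ended after quantile normalization, with the compared arms alone, and with median-of-ratios scaling without BMP2+RSPO2 replicate 1. That of Gbp2 ended without a filter, and that of Lgals3bp after median-of-ratios scaling of all libraries.

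Of 13 other genes of class I antigen processing, 7 (53.8%) fell with both proteins and none rose, with a median of −0.66, beside 19.4% and −0.26 for all tested genes. Psme1 and Psme2 encode the interferon-inducible proteasome activator PA28. Psme1 went from 17.9 ± 1.85 to 8.33 ± 0.53 FPKM (−1.02, SE 0.13, adjusted p = 0.000684) and Psme2 from 36 ± 2.75 to 16.3 ± 2.36 FPKM (−1.11, SE 0.17, adjusted p = 0.00216). Both were called against BMP2 too, with changes of −0.61 (SE 0.13, adjusted p = 0.0318) and −0.85 (SE 0.17, adjusted p = 0.0284). These calls ended in 7 and 6 of the 12 fits that left out 1 library (adjusted p up to 0.0896 and 0.108). Both also ended with the compared arms alone and with median-of-ratios scaling without BMP2+RSPO2 replicate 1. That of Psme1 ended after median-of-ratios scaling of all libraries too. H2-T10, a non-classical class I gene at 12.4 ± 1.2 FPKM in Control, fell to 7.36 ± 1.49 (−0.70, SE 0.15, adjusted p = 0.00927), and rescaling of either kind ended its call. Psmb7, the constitutive proteasome subunit that Psmb10 replaces, stood at 52.5 ± 5.69 FPKM in Control and fell to 32.8 ± 3.8 (−0.67, SE 0.16, adjusted p = 0.0161), and this call ended after median-of-ratios scaling and without Control replicate 1 (0.0618). The constitutive Psmb6, which Psmb9 replaces, is named beyond the 4 called genes with the smallest p. It was called lower too (−0.55, SE 0.14, adjusted p = 0.0194), and whether its call held in the alternatives is not given. Its change was smaller in size than that of Psmb9, although the difference between them was not tested. The pair of Psmb7 and Psmb10 is not compared here. Of 2 tested MHC class II genes, H2-DMa fell (−1.18, SE 0.37, adjusted p = 0.0404), a call that ended without 7 of the 12 libraries, BMP2+RSPO2 replicate 1 among them (adjusted p up to 0.126).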

How the data were processed

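The 34 members, their roles and the pathway and marker lists were chosen with earlier results of these data known, and so were the tests and alternatives. The submitters' processing notes name cutadapt 1.10, FastQC 0.10.1, HISAT2 2.0, StringTie 1.3.4 and edgeR (no version), without their roles. The authors deposited 1 FPKM value per gene and library, with 2 decimals, and the table also holds deposited p-values and q-values whose comparison is not given in the sources used here, so these were not used. The notes name GRCm38 and mm10, while the gene identifiers belong to the C57BL/6NJ annotation, so no coordinates are given for expression values; those of promoters belong to the RefSeq sequences (GRCm38.p6).

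The tested genes reached 1 FPKM in 3 or more of the 12 libraries, and the test ran on log2(FPKM + 1) with limma 3.58.1 in R 4.3.3 (1 linear model with the 4 arms, trended variance prior, 8 residual and 2.5 prior degrees of freedom). Tests were two-sided, and Benjamini-Hochberg adjustment was made separately for the 6 comparisons. The pseudocount pulls changes of low genes toward 0. The fit was tested on simulated data. Depth is unknown: in 66 pairs of libraries low values showed no steps of whole reads, the fullest bin of their ratios holding 2.02% to 3.55% of genes, so no interval or floor is given for a value of 0. No 2 libraries were identical. One gene of the pathway lists is not reported here, and the lists' counts leave it out. Values in every library are given for members called in any comparison and for the most abundant member of each role. Other members are given mostly by ranges, apart from those described after their values were seen. Of each pathway list up to 4 called genes with the smallest p are named, and Psmb6 was added to these. Alternatives were pseudocounts of 0.1 and 0.5, other filters, quantile normalization, median-of-ratios scaling, a constant variance prior, the compared arms alone, a replicate block, replicates 2 and 3 alone, and each library left out. Median-of-ratios scaling without BMP2+RSPO2 replicate 1 was added after seeing the data.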

Additional observations from a re-analysis of the deposited data

Results flagged for a closer look

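The effect of RSPO2 on Ifitm3 differed with the presence of BMP2 by a test of that difference: RSPO2 changed it by 0.02 without BMP2 and by −1.05 with it, an interaction of −1.06 (SE 0.16, limma adjusted p = 0.0308), with all 3 BMP2+RSPO2 libraries (118 to 144 FPKM) below all other libraries (266 to 356 FPKM). The call of this interaction was lost after quantile normalization (adjusted p = 0.0766), after median-of-ratios scaling (0.107) and in 10 of the 12 fits that left out 1 library (up to 0.133), while its sign held throughout.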

How the results depend on the processing

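Depth is unknown and each arm holds 3 libraries, which limits what the counts of calls can show, and values at 0 make the size of a fold depend on the pseudocount. The count of 13 members called with both proteins against Control, all lower, stayed within 9 to 16 under the alternatives tried and within 10 to 14 when 1 library was left out. Over all genes 2656 were called with all libraries, 1172 to 4004 under the alternatives and 1600 to 2749 with 1 library left out. Of these 13 calls, 9 held under every alternative (Psmb8, Ifitm3, Irf1, Ifi27l2a, Tap2, Psmb9, Tapbp, Ifi27 and Bst2). Against RSPO2 the count of 14 stayed within 10 to 17 (12 to 15 with 1 library left out), and 10 calls held under every alternative. The count over all genes, 3015 with all libraries, was within 1231 to 4290 (1834 to 3052 with 1 library left out). The 14 calls were all lower, but Ifitm1 was called higher against RSPO2 with the replicate block, from replicates 2 and 3 alone and in both settings without BMP2+RSPO2 replicate 1, and B2m after quantile normalization, from replicates 2 and 3 alone and with median-of-ratios scaling without that library. From replicates 2 and 3 alone Isg15 was called higher against Control and BMP2, and it is among those counts. Against BMP2 the count of 8 was 4 without a filter, with quantile normalization, with median-of-ratios scaling and with that scaling without BMP2+RSPO2 replicate 1, and 1 with the compared arms alone. In the same order 306, 261, 258, 501 and 35 of all genes were called, against 506 with all libraries. The members' count was 1 to 8 with 1 library left out, beside 60 to 711 of all genes. Ifitm3 was the 1 member call that held under every alternative. The single interaction call was 0 under either rescaling, 6 from replicates 2 and 3 alone and 0 to 3 with 1 library left out. Interaction calls over all genes were 34 with all libraries, 1107 from replicates 2 and 3 alone and 0 to 185 with 1 library left out. BMP2 against Control gave 3 calls from replicates 2 and 3 alone (Ifitm1 and B2m higher, Ifi27l2a lower), 1 with the scaling without BMP2+RSPO2 replicate 1 (Ifitm1), and 0 to 3 with 1 library left out. These settings called 967, 314 and 66 to 402 of all genes, against 175 with all libraries. RSPO2 against Control gave 1 from replicates 2 and 3 alone (Ifitm1, lower) and 0 to 0 with 1 library left out. There, 192 and 0 to 21 of all genes were called, against 9 with all libraries. Ifitm2 with both proteins against Control turned to 0.02 after quantile normalization. Isg15 turned to 0.00 after quantile normalization, 0.75 from replicates 2 and 3 alone, 1.04 with median-of-ratios scaling without BMP2+RSPO2 replicate 1, and 0.82 without that library (−0.99 to 0.82 with 1 library left out). Against BMP2 it turned to 0.83, 1.03 and 0.87 in the last 3 of these settings (−0.94 to 0.87 with 1 library left out). The last 3 of these settings leave out the library at 0; the cause of the other shifts was not tested. By their labels, libraries of different arms share only a replicate number, and the main fit did not use it. In 16 of 18 same-numbered pairs the deviations from the arm means correlated above 0.1 (−0.124 to 0.631). These held all 6 pairs of replicate 1 (0.161 to 0.631), all 6 of replicate 2 (0.246 to 0.408) and 4 of 6 of replicate 3. Of the 12 libraries, 9 correlated best with their own number, so same-numbered libraries shared part of their deviations. With the replicate number as a block, the counts were 0 for RSPO2 against Control, 2 for BMP2 against Control (Ifitm1 higher, Ifi27l2a lower), 16, 12 and 17 for both proteins against Control, BMP2 and RSPO2, and 1 for the interaction. The block called 26, 329, 3897, 1710, 4159 and 91 of all genes in the same order of comparisons.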
